A study of Sus scrofa with 40 samples.

Results

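The 4 probes CN153994.1_766, BW968508.1_635, AJ664692.1_225 and BX673277.1_2642 of a pig expression microarray stand for 3 genes of membrane transport, the first 2 for SLC28A1, the others for SLC25A24 and CLCN2. They were chosen by probe name, and are 4 of the 15198 gene probes on the array. Their symbols were taken from the list of genes that the study found more expressed in Large White pigs on these same arrays, so a lower value in Basque pigs is not independent evidence of direction. SLC28A1 encodes a concentrative nucleoside transporter of the plasma membrane, which carries pyrimidine nucleosides into the cell together with sodium. SLC25A24 encodes a carrier of the inner mitochondrial membrane that exchanges ATP-Mg for phosphate and is regulated by calcium, and CLCN2 encodes ClC-2, a chloride channel opened by hyperpolarization. Chloride conductance is a known determinant of the resting excitability of muscle fibres, mostly through the related channel ClC-1.

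RNA from Longissimus muscle, the loin, was taken from 20 Basque (B) and 20 Large White (LW) pigs of 145 kg live weight, 10 of each breed in a conventional and 10 in an alternative housing system. According to the study's methods, all were castrated males, the conventional system was indoors on a slatted floor and the alternative one had bedding and access outdoors. Each pig was hybridized alone on 1 array, labelled with the dye Cy3, beside a common Cy5-labelled pool made from the 40 pigs. The pigs were separate animals, but the methods took 2 pigs per litter, litter is not in the labels used here and the P values treat the pigs as independent, and ages are not in those labels either. The study describes B pigs as slower growing and older than LW pigs at this weight, and both breeds as given equal feed at a given weight, so age and feeding cannot be separated from breed in any difference given here.

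Levels are given as the log2 ratio of pig to pool, where 0 is the median probe of the array and a difference of 1 is a doubling. The ratio was computed from the mean signals of each spot after background correction and, separately, from the processed signals that the scanner software had already corrected. The correction of the mean signals added an offset of 50 to both dyes, which narrows the ratios of dim spots more than those of bright ones. Breed differences are B minus LW, estimated in limma with breed, housing system, their interaction and slide in the model, and a probe was called at a Benjamini-Hochberg adjusted P under 0.05 over the 12222 probes tested. All arrays had the same dye orientation, which the methods state, and correlations between 2 arrays over the tested probes went from −0.34 to 0.83.

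Before the results, 2 arrays have to be set apart. On B alternative replicate 15 and LW alternative replicate 18, 7 and 10 spots had a local background more than 10 times the median of their array, up to 57686 and 8974 in Cy3. The background correction by normexp was fitted to all spots, and it compressed the remaining intensities of these arrays: the quartiles of corrected Cy3 intensity were 1156 and 1340 on the B array and 319 and 727 on the LW array, against medians of 83.1 and 517 for the quartiles of the other arrays. When those backgrounds were replaced by the array median, the quartiles became 80.6 and 509 on the B array and 99.7 and 543 on the LW array, and the lowest correlation between 2 arrays became 0.21. The results reported are those of the planned correction, without replacement. Values with replacement, an alternative chosen after seeing the data, stand beside them, and the processed signals do not use this correction.

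The 4 probe sequences are shown because 2 of them stand for the same gene, and to show what each spot could bind. Capitals mark the only stretch of 15 bases or more that any of them shared, on either strand, with another probe of the array.
CN153994.1_766: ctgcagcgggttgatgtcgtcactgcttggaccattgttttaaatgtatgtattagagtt
BW968508.1_635: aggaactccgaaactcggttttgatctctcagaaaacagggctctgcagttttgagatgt
AJ664692.1_225: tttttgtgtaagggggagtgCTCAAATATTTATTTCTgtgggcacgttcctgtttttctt
BX673277.1_2642: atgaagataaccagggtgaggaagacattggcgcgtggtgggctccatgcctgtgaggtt

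Each probe had 60 bases. The GC content was 41.7% and 45% for the SLC28A1 probes in the order shown, 38.3% for SLC25A24 and 55% for CLCN2, with a median of 45% over the tested probes. Any 2 of the 4 shared at most 6 bases on the same strand and at most 8 on opposite strands. The 17 capital bases of the SLC25A24 probe, which start at its base 21, also lay in the unnamed probe BP137611.1_972. That probe moved the other way: it was 0.10 higher in B on the log2 scale (limma adjusted P = 0.0415), and its correlation with the SLC25A24 probe was −0.17 over the 40 arrays, 0.20 within B and 0.098 within LW. The match of each probe to a transcript of its gene, and its strand, were not checked here. This includes the CLCN2 probe: which strand of the gene it reads is unknown, and its values are those of the probe.

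All 4 probes passed the filter, which asked for a Cy3 signal well above background on at least 10 arrays of a breed. In LW, each was well above background on 20 of 20 arrays. In B, this held on 20 of 20 arrays for SLC28A1 CN153994.1_766, 17 for SLC28A1 BW968508.1_635, 18 for SLC25A24 and 19 for CLCN2. No spot of the 4 probes was saturated or marked as an outlier. The median Cy3 signal was 6.03 times its local background in B and 12.3 times in LW for CN153994.1_766. For the other probes it lay close to the background: 2.02 and 2.38 times for BW968508.1_635, 2.27 and 3.29 times for SLC25A24 and 2.18 and 3.32 times for CLCN2, in B and LW respectively.

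SLC28A1, the nucleoside transporter, was lower in B on both of its probes. On CN153994.1_766, the lowest, median and highest log2 ratios were −1.60, −0.87 and −0.21 in B conventional pigs and −1.33, −0.78 and −0.22 in B alternative pigs. They were −1.47, 0.20 and 0.76 in LW conventional and −0.89, 0.22 and 0.80 in LW alternative pigs. All 20 B pigs were below the LW median and 15 of 20 LW pigs were above every B pig, but 5 LW pigs lay within the B range. Of these, 3 were below the B median: LW conventional replicates 8 (−1.47) and 2 (−0.97) and LW alternative replicate 12 (−0.89). Before correction, the median Cy3 intensity was 254 in B and 524 in LW, and that of the pool was 918 and 941. The breed difference was −0.86 (SE 0.157, 95% confidence interval −1.18 to −0.54, limma adjusted P = 0.000133), which is 1.82-fold higher in LW, with 20 of 20 B pigs under the LW median. In bulk muscle, fewer cells that express a gene and less of its RNA per cell cannot be told apart.

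With the processed signals, the difference of CN153994.1_766 was −1.10 (SE 0.207, limma adjusted P = 0.000133), or 2.15-fold, again with 20 of 20 B pigs under the LW median and the same number of LW pigs, 3, below the B median. With the extreme backgrounds replaced it was −0.88 (limma adjusted P = 9.69e-05), and without the 2 arrays −0.85 (limma adjusted P = 0.000196). Replacement moved the value of B alternative replicate 15 from −0.46 to −1.44, below the lowest value given above for its group. That of LW alternative replicate 18 went from 0.19 to −0.096. B was lower within 6 of 7 slides and within 3 of 3 scan days. Slide 2 differed: it held 1 B pig at −0.32 and 1 LW pig, the low LW alternative replicate 12, at −0.89, a difference of 0.57.

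On BW968508.1_635, the second SLC28A1 probe, the values lay in a narrower range. The lowest, median and highest log2 ratios were −0.23, 0.10 and 0.29 in B conventional and −0.050, 0.079 and 0.38 in B alternative pigs. They were 0.21, 0.31 and 0.43 in LW conventional and 0.0021, 0.32 and 0.51 in LW alternative pigs. In conventional housing 8 of 10 B pigs were below every LW pig, whereas in alternative housing the ranges overlapped more and 2 of 10 were. The lowest LW alternative value was that of replicate 18, which became 0.24 with its extreme backgrounds replaced, and B alternative replicate 15 went from 0.072 to 0.28. The median Cy3 intensity was 87.4 in B and 105 in LW. The breed difference was −0.21 (SE 0.0448, 95% confidence interval −0.30 to −0.12, limma adjusted P = 0.000754), 1.16-fold higher in LW, with 19 of 20 B pigs under the LW median. With the processed signals it was −0.66 (SE 0.116, limma adjusted P = 5.33e-05), or 1.58-fold, with 20 of 20 B pigs under the LW median. It was −0.22 (limma adjusted P = 0.000185) with backgrounds replaced and lower in B within 7 of 7 slides.

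SLC25A24, the mitochondrial ATP-Mg/phosphate carrier, was lower in B with a wide spread among B pigs in alternative housing. The lowest, median and highest log2 ratios were −0.57, −0.18 and 0.069 in B conventional and −0.64, −0.10 and 0.58 in B alternative pigs. They were 0.038, 0.35 and 0.78 in LW conventional and −0.0027, 0.31 and 1.01 in LW alternative pigs. In conventional housing 8 of 10 B pigs lay below every LW pig. In alternative housing B replicates 13 (0.40) and 11 (0.58) were above the median of all LW pigs, and the SD was 0.39 in B against 0.21 in B conventional pigs; the difference between these SDs was not tested. The median Cy3 intensity was 101 in B and 145 in LW. The breed difference was −0.51 (SE 0.0849, 95% confidence interval −0.69 to −0.34, limma adjusted P = 3.80e-05), 1.43-fold higher in LW; 18 of 20 B pigs lay under the LW median.

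With the processed signals the SLC25A24 difference was −1.21 (SE 0.211, limma adjusted P = 5.28e-05), or 2.32-fold, and 18 of 20 B pigs lay under the LW median. In that measure the 10 B and 10 LW pigs in conventional housing did not overlap, and B alternative pigs went from −2.35 to 0.89. How many of the tested probes also lack overlap there was not counted. With the processed signals limma called 1561 of 12222 probes (12.8%) for breed in conventional housing. With backgrounds replaced the SLC25A24 difference in the mean signals was −0.52 (limma adjusted P = 1.24e-05). B was lower within 7 of 7 slides, by values from −0.71 to −0.40, and within 3 of 3 scan days.

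CLCN2, the chloride channel, gave the clearest separation of the breeds. The lowest, median and highest log2 ratios were −0.50, −0.25 and −0.10 in B conventional and −0.34, −0.19 and 0.018 in B alternative pigs. They were −0.22, 0.39 and 1.01 in LW conventional and −0.011, 0.27 and 0.91 in LW alternative pigs. The SD was 0.12 in B pigs (n = 20) and 0.32 in LW pigs (n = 20), and 0.25 and 0.57 with the processed signals. The difference between these SDs was not tested. With the mean signals 17 of 20 LW pigs were above every B pig. The highest B value was that of B alternative replicate 15, which became −0.29 with its extreme backgrounds replaced, while LW alternative replicate 18 went from 0.010 to −0.28. The median Cy3 intensity was 94.4 in B and 139 in LW.

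The breed difference of CLCN2 was −0.60 (SE 0.0749, 95% confidence interval −0.75 to −0.44, limma adjusted P = 4.84e-07), 1.51-fold higher in LW, with 20 of 20 B pigs under the LW median. With the processed signals it was −1.35 (SE 0.141, limma adjusted P = 1.19e-08), or 2.54-fold, 20 of 20 B pigs were below the LW median and 19 of 20 LW pigs were above every B pig. With backgrounds replaced it was −0.59 (limma adjusted P = 4.70e-07). B was lower within 7 of 7 slides, by values from −0.87 to −0.29, and within 3 of 3 scan days.

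All 4 probes were thus called lower in B with both signals. Over the array, limma called 2583 of 12222 probes for breed with the mean signals (21.1%), of which 1160 were lower in B (9.49%), and 3787 with the processed signals (31.0%), of which 1764 were lower in B (14.4%). With the extreme backgrounds replaced 3512 probes were called, 1323 of them lower in B, and without the 2 arrays 3549. For the 3 dim probes the difference was more than 2 times as large in the processed signals, as it was not for the brighter CN153994.1_766; the cause was not tested. Uncorrected Cy3 means in B were 0.512 of those in LW for CN153994.1_766, 0.829 for BW968508.1_635, 0.691 for SLC25A24 and 0.614 for CLCN2, and in processed signals 0.419, 0.591, 0.457 and 0.343.

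**Figure D1:**
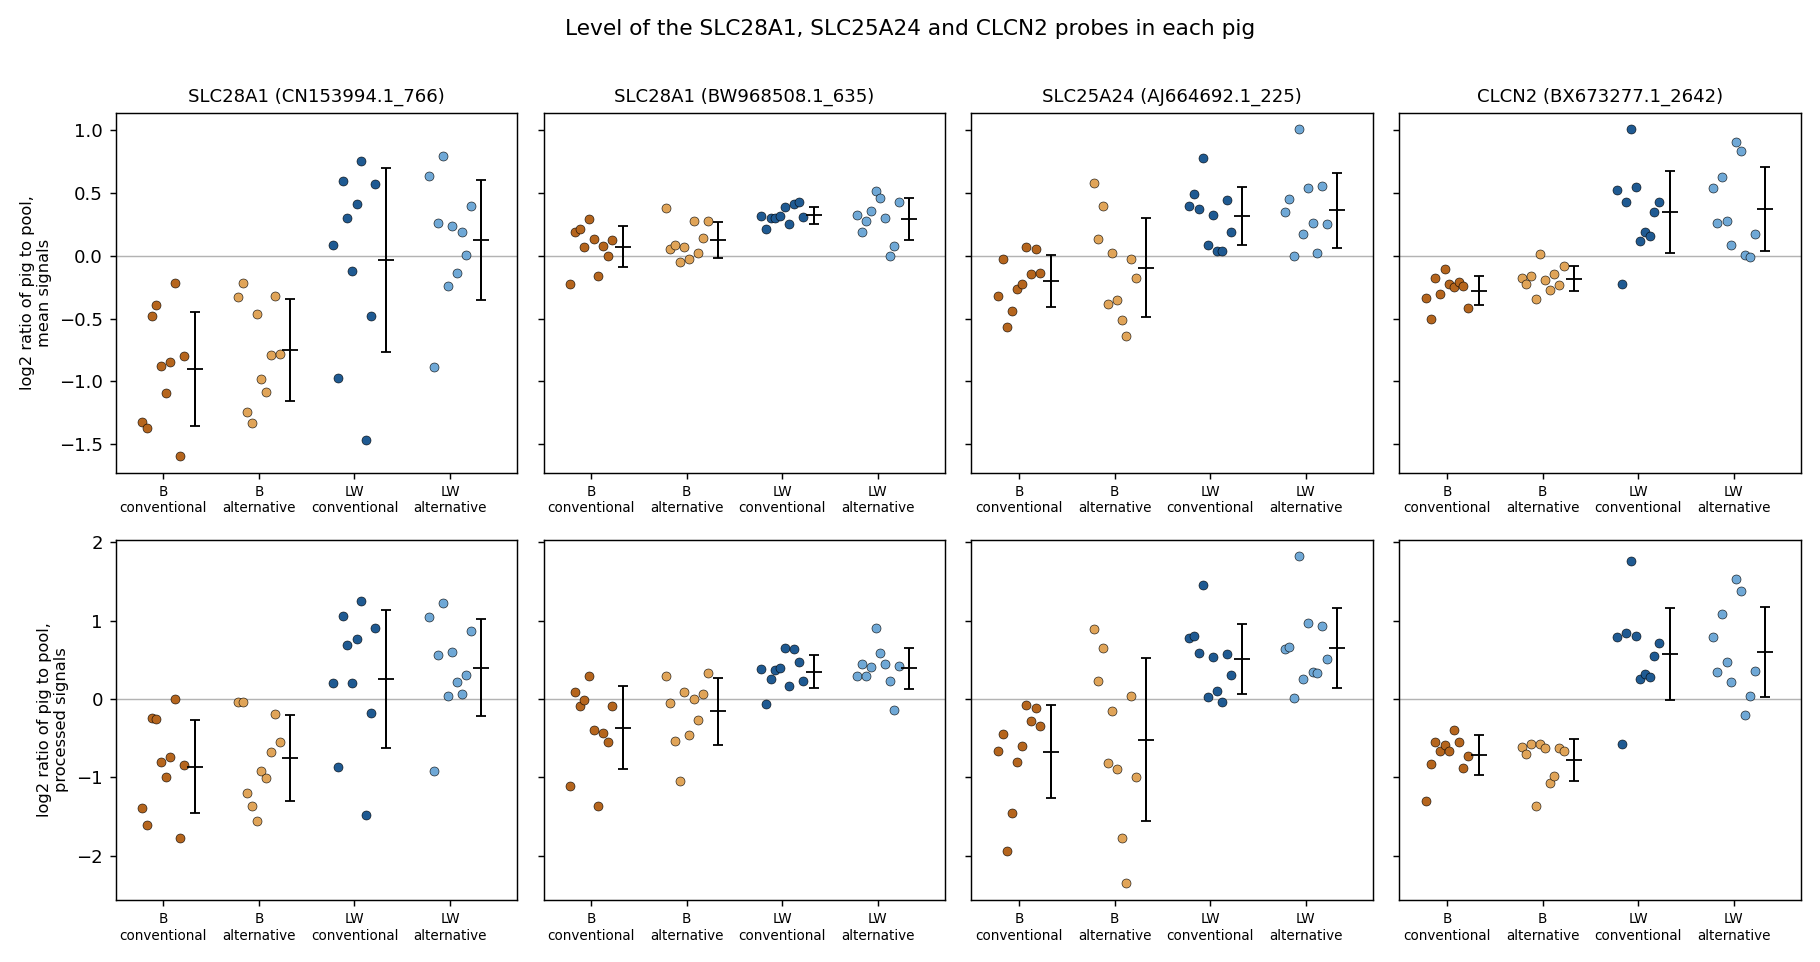
Each point is 1 pig, 10 per group, with its log2 ratio of pig to pool from mean signals (upper panels) and processed signals (lower panels); dashes with bars are group means ± SD. Most B pigs lie below most LW pigs for each probe, and 3 LW pigs lie below the B median on CN153994.1_766.

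The pool in the Cy5 channel was the same on all arrays and served as control. Its breed difference was −0.0052 for CN153994.1_766, −0.048 for BW968508.1_635, −0.019 for SLC25A24 and −0.00023 for CLCN2, none of them called in limma. For CLCN2 this averages 0.12 in conventional and −0.12 in alternative housing, an interaction of −0.25 in the pool (95% confidence interval −0.49 to −0.0096, limma unadjusted P = 0.0419, adjusted 1.00). Over the array limma called 0 probes for breed in Cy5, with 33 at an unadjusted P under 0.05. That is far fewer than 1 in 20 of the tested probes, and the 2 distorted arrays widen the spread of this control, so it could show little in this form. With the extreme backgrounds replaced, the Cy5 differences were 0.0016, −0.045, −0.0042 and −0.038 in the same order, none called. Limma then called 2 of 12222 probes, with 224 at an unadjusted P under 0.05. This count is still well under 1 in 20 of the tested probes, and the reason was not tested. One CLCN2 spot stood apart in both channels: on LW alternative replicate 18 its Cy5 intensity was 701 and its Cy3 intensity 275, the highest of the 40 arrays in each channel.

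**Figure D2:**
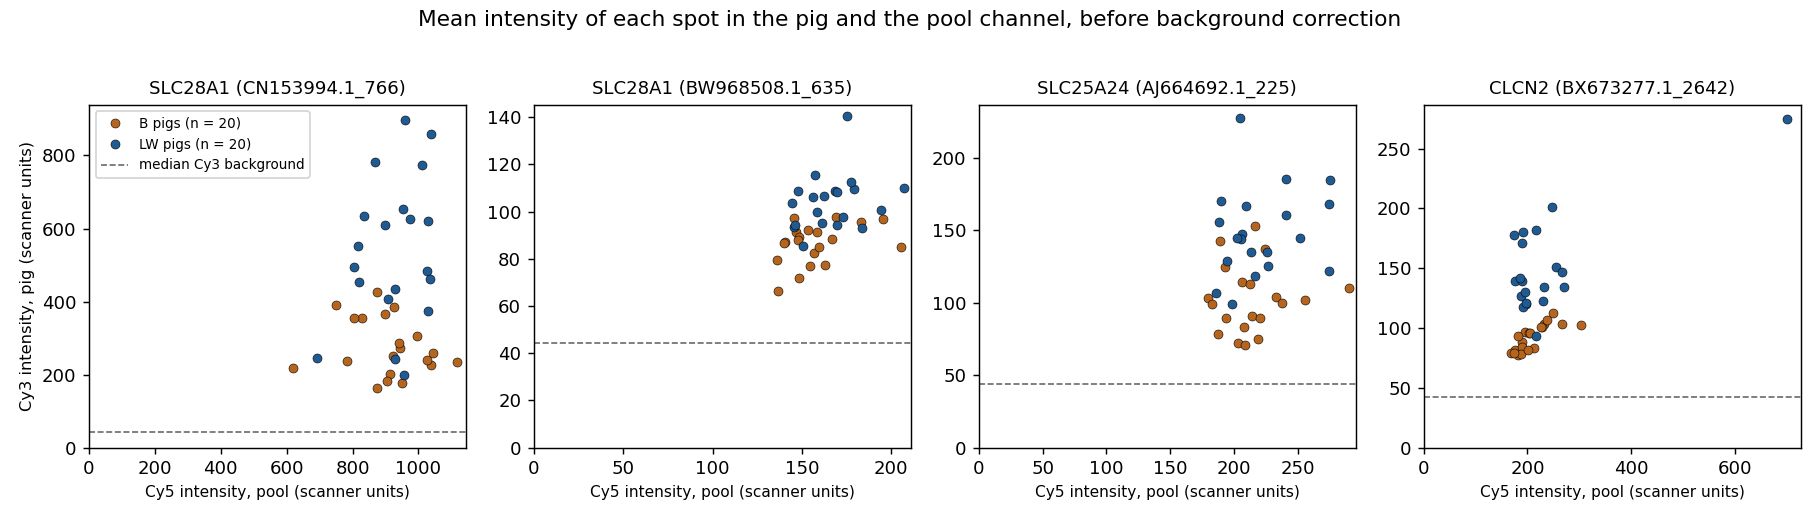
Each point is 1 array, with the mean Cy3 intensity of the pig against the mean Cy5 intensity of the pool, in scanner units before background correction; the dashed line is the median local Cy3 background. The breeds differ along the Cy3 axis, and 1 LW array carries a CLCN2 spot at 701 in Cy5.

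Within conventional housing all 4 probes were called lower in B. The differences were −0.80 (limma adjusted P = 0.0205) and −0.25 (0.011) for SLC28A1 CN153994.1_766 and BW968508.1_635, −0.52 (0.00491) for SLC25A24 and −0.61 (0.000321) for CLCN2, with 10 of 10 B pigs under the LW median of that housing system for each. When the Cy3 intensity of the pig was fitted alone, without the pool, CN153994.1_766 (−0.83, limma adjusted P = 0.0857) and BW968508.1_635 (−0.26, 0.146) were not called in conventional housing, while SLC25A24 (−0.52, 0.0274) and CLCN2 (−0.49, 0.0171) were, among 232 of 12222 probes that limma called in that fit (1.9%). With the log2 ratio limma called 1007 of 12222 probes in this comparison (8.24%). Within alternative housing 3 of the 4 were called: −0.93 (limma adjusted P = 0.00743) for CN153994.1_766, −0.50 (0.00737) for SLC25A24 and −0.59 (0.00053) for CLCN2, with 10, 8 and 10 of 10 B pigs under the LW median. There limma called 926 probes (7.58%). BW968508.1_635 differed by −0.17 in alternative housing and was not called (limma adjusted P = 0.0859), with 9 of 10 B pigs under the LW median.

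This call changed with the 2 arrays set apart, both of alternative housing, and with other choices of background correction and normalization. With backgrounds replaced the BW968508.1_635 value was again −0.17 but was called (limma adjusted P = 0.0455), without the 2 arrays it was −0.20 (0.0272), and with the processed signals −0.58 (0.0141). With the Cy3 intensity alone it was −0.26 and not called (0.15), in a fit where limma called 231 of 12222 probes (1.89%). The breed difference was not shown to differ between housing systems. The interaction was −0.13 for CN153994.1_766, 0.076 for BW968508.1_635, 0.020 for SLC25A24 and 0.021 for CLCN2, with limma adjusted P of 0.974 or more. Over the array limma called 0 probes for interaction with the mean signals (0%), with 312 at an unadjusted P under 0.05, and 0 with the processed signals, with 280.

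No difference between the housing systems was shown for any of the 3 genes. Alternative minus conventional was 0.23 (SE 0.163) for CN153994.1_766, 0.038 (SE 0.0465) for BW968508.1_635, 0.12 (SE 0.0881) for SLC25A24 and 0.072 (SE 0.0777) for CLCN2. None was called in limma with either signal, and the 95% confidence intervals reached 0.56, 0.13, 0.30 and 0.23. Over the array limma called 0 probes for housing with the mean signals, with 336 at an unadjusted P under 0.05, and 0 with the processed signals, with 537. With backgrounds replaced the differences were 0.16, 0.061, 0.12 and 0.041, none called. By group median, both B groups stood below both LW groups for each probe, and the order of the housing systems within a breed was not resolved.

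**Figure D3:**
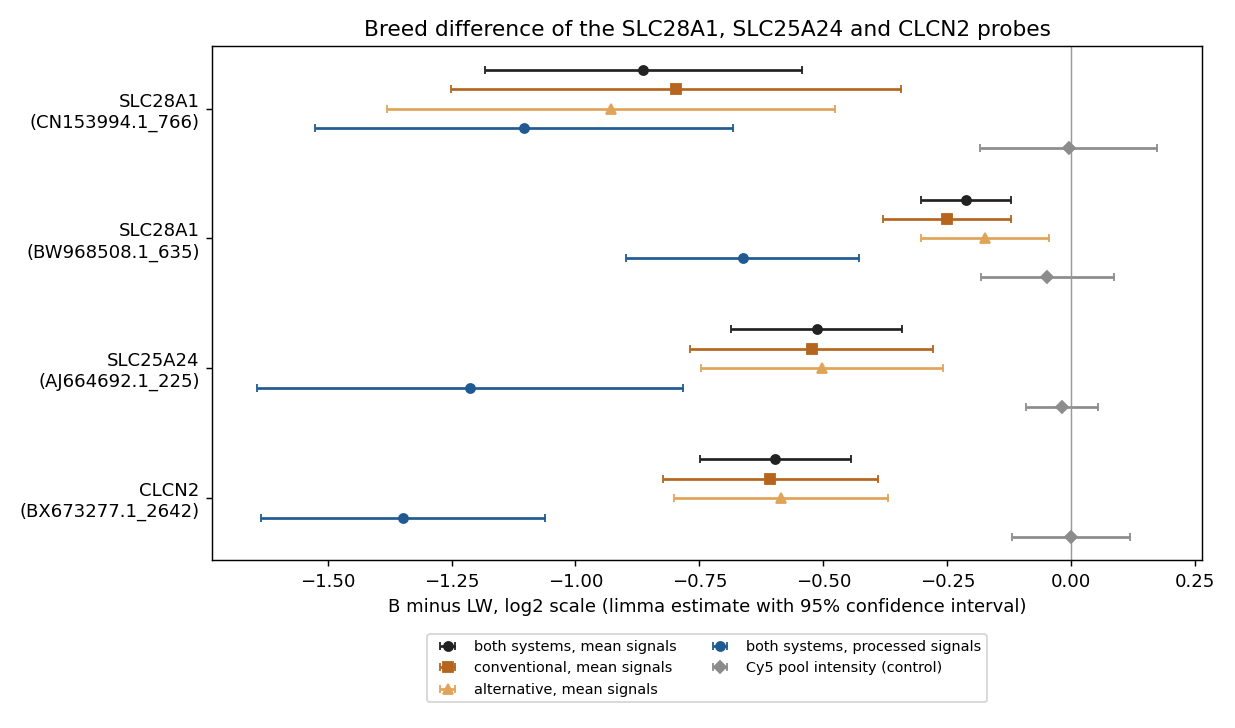
B minus LW on the log2 scale for each probe, as limma estimates with 95% confidence intervals, over both housing systems, within each of them, with processed signals and in the Cy5 pool. All ratio estimates lie below 0, those of the processed signals lie farther out, and the Cy5 intervals include 0.

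The 2 SLC28A1 probes differed in the size of their breed difference with the mean signals. BW968508.1_635 is the dimmer of them, so the offset narrows its ratios more, and the share of this in the difference was not tested. The difference of CN153994.1_766 was lower than that of BW968508.1_635 by a log2 value of −0.65 (SE 0.156, 95% confidence interval −0.97 to −0.33, limma adjusted P = 0.00095 over pairs). This was rank 3 in size among 97 pairs of probes that share a symbol in the study's list, whose median size was 0.11, and 42 of the 97 pairs were called (43.3%). With backgrounds replaced it was −0.67 (limma adjusted P = 0.00104). With the processed signals it was −0.44, rank 9 of 97, and not called (95% confidence interval −0.89 to 0.0046, limma adjusted P = 0.154), where 24 of 97 pairs were called (24.7%).

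No correlation between these probes over the pigs of 1 breed was called. Of 12 correlations, 6 pairs of probes in each breed after removal of housing system and slide, 0 were called after adjustment by the permutation test, with 2 at an unadjusted P under 0.05, and r went from −0.43 to 0.50. The permutation P values are close to those for 20 independent pigs. They allow nothing for the terms removed, so all those given here may be too low. The highest was between SLC28A1 CN153994.1_766 and CLCN2 in B pigs (r = 0.50, permutation P = 0.0242, adjusted 0.178; Spearman rho = 0.59, permutation P = 0.0076, adjusted 0.0912; n = 20), and r was 0.51 without the 2 pigs farthest from the median. The lowest was between BW968508.1_635 and SLC25A24 in B (r = −0.43, permutation P = 0.0594, adjusted 0.178; rho = −0.39, permutation P = 0.0937, adjusted 0.375; r = −0.36 without 2 pigs), and it was −0.55 with the processed signals. Before housing system and slide were removed, r in B was 0.15 for BW968508.1_635 with SLC25A24, the other sign. It was 0.38 for CN153994.1_766 with CLCN2. With backgrounds replaced the rho of CN153994.1_766 with CLCN2 in B was 0.67 and passed the adjustment (permutation P = 0.00174, adjusted 0.0209), but r did not (0.58, adjusted 0.0851). In LW pigs CN153994.1_766 with CLCN2 gave r = 0.46 (permutation P = 0.0436, adjusted 0.178) and rho = 0.27 (permutation P = 0.254, adjusted 0.61), with r = 0.38 without 2 pigs. The 2 SLC28A1 probes gave r = 0.43 in B (permutation P = 0.0546, adjusted 0.178; rho = 0.52, permutation P = 0.0189, adjusted 0.113; r = 0.31 without 2 pigs) and r = −0.13 in LW (permutation P = 0.592, adjusted 0.965; rho = −0.14, permutation P = 0.569, adjusted 0.854; r = −0.14 without 2 pigs). With backgrounds replaced r was 0.23 in B and −0.040 in LW for the SLC28A1 probes, and 0.44 in LW for CN153994.1_766 with CLCN2.

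The probes most alike were sought by the correlation over 40 arrays of what the model left unexplained. All share these arrays and their pool. Over all probes searched, this correlation had a median from −0.082 to 0.0023 and a 99th percentile from 0.41 to 0.45, depending on the probe. The top values of so large a search are high by selection, and none was tested. For CN153994.1_766 the named ones among the first 3 were CD248, a surface glycoprotein of stromal cells, at 0.62 and ITGB1BP2, the muscle protein melusin, also at 0.62. For BW968508.1_635 it was CTNNBIP1, an inhibitor of beta-catenin, at 0.57, and for SLC25A24 it was FUCA2, a fucosidase, at 0.57. Only probes of the study's list have names here, and only the first 3 per probe were taken. Whether the SLC28A1 probes share named neighbours therefore cannot be read from this search. The closest to CLCN2 was the unnamed probe CF359414.1_349 at 0.72, which fell to 0.50 with the processed signals and differed by only 0.025 between the breeds. With backgrounds replaced these correlations were 0.64, 0.61, 0.66, 0.57 and 0.79, in the order named.

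The 10 other transporter and channel genes of the same list, with 12 probes, were lower in B on all 12. Limma called 8 of these 12 with the mean signals and 11 with the processed signals, and the median difference was −0.24 and −0.47, against 0.0011 and 0.0025 over all tested probes. The list was chosen on these arrays for higher values in LW, so the direction follows from the choice, and transporters and channels named among genes higher in B were not examined; of its 683 probes limma called 505 for breed with the mean signals and 596 with the processed ones. The glucose transporter relative SLC5A4 differed most, by −0.70 (limma adjusted P = 6.87e-05), and SLC7A2, a carrier of cationic amino acids, by −0.58 on each of 2 probes and by −0.11 on another, not called. SCN3B, a sodium channel subunit, differed by −0.44, the monocarboxylate transporter family member SLC16A5 by −0.33, SLC35B3 by −0.21, the potassium channel KCNC4 by −0.16 and the bicarbonate transporter SLC4A7 by −0.15, all called. Of genes near in kind to the 3, SLC25A1, the mitochondrial citrate carrier, differed by −0.11 and CLCN5, an endosomal chloride transporter, by −0.13. ATP2A1, the calcium pump of fast fibres, differed by −0.28. With the mean signals none of these was called. With the processed signals SLC25A1 (−0.36, limma adjusted P = 0.0112) and ATP2A1 (−0.31, limma adjusted P = 0.0131) were called, and CLCN5 (−0.30, limma adjusted P = 0.085) was not.

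The labelled tissue was checked against markers as far as the list names their probes. Of 13 muscle fibre markers 3 were named, ACTA1, MYH1 and ATP2A1, and of 5 fibroblast markers 2, COL1A2 and DCN; all their probes were well above background on all 40 arrays, with a median Cy3 intensity of 41292 for ACTA1 and 38758 for MYH1. Markers of adipocytes, endothelium, macrophages and erythrocytes had no named probe in it. MYH1, the myosin of fast fibres, was also lower in B, by −0.66 (limma adjusted P = 0.00159), and COL1A2 by −0.49 (limma adjusted P = 0.0334) on 1 probe and −0.18 on the other, not called; DCN differed by −0.17 and ACTA1 by −0.29, not called. These markers come from the same list, and their part in the differences of SLC28A1, SLC25A24 and CLCN2 was not tested.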

How the data were processed

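The authors deposited, for each of 40 arrays, scanner intensities of both dyes extracted with Agilent Feature Extraction, and a table of log2 values; per the methods these are log2 ratios of Cy3 to Cy5, filtered for spot quality, centred on the median of each array and normalized between arrays by Rquantile in limma, which the submitters' processing notes name without a version. In the log2 table the column medians went from −0.0148 to 0.0261, and its correlation per array with the processed signal ratio had a median of 0.994. On the 2 arrays set apart this correlation was lower, 0.680 on B alternative replicate 15 and 0.833 on LW alternative replicate 18. Here limma 3.58.1 in R 4.3.3 corrected mean signals by normexp (offset 50) with the median local background, log2(Cy3/Cy5) was centred on the array median, 546 control spots and 2396 outlier spots were left out, and 12222 of 15198 probes, those whose Cy3 signal stood well above background on 10 or more arrays of either breed, were fitted with breed, housing system, their interaction and slide (7 slides, 3 scan days). Empirical Bayes moderation and Benjamini-Hochberg adjustment ran over all tested probes. Agilent's processed signals were fitted alike. 

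Correlations used 100000 permutations. The array median Cy3 intensity went from 128 to 165 and its background from 39.5 to 48; the number of arrays limits the precision. After the arrays were seen to hold 17 spots with extreme local backgrounds, on 2 arrays, a fit with those backgrounds set to the array median was added; the planned fit remained the reported one. Also added after seeing the data were the same replacement in the Cy5 control and fits without LW alternative replicate 18, without the 2 arrays of slide 2 and without each pig in turn. The 17 alternatives of the plan changed background correction, normalization, filter, batch terms and arrays.

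The probes and gene lists were chosen with earlier results of these data known. Named were the 4 probes, any probe of the same contig (none besides), 10 other transporter and channel genes of the study's list of genes higher in LW, the 3 probes most correlated with each over residuals, and cell type markers; relatives outside that list were not looked up. Symbols SLC28A1, SLC25A24 and CLCN2 each matched 1 RefSeq gene.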

Additional observations from a re-analysis of the deposited data

Results flagged for a closer look

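In 48 groups of 10 pigs, each probe and housing group in the mean signal ratio, the processed signal ratio and the Cy5 pool, a gap test (the distance of the farthest pig to its neighbour over the range of its group) made 6 marks on 4 pigs; chance marks about 1 in 20 groups. In the processed ratio, LW alternative replicate 14 was high for SLC25A24 (0.472 of the range) and B conventional replicate 1 was low for CLCN2 (0.468). In the Cy5 pool the others lay on the 2 arrays with extreme local backgrounds: SLC28A1 CN153994.1_766 was low on B alternative replicate 15 (0.796) and LW alternative replicate 18 (0.741), and SLC28A1 BW968508.1_635 was high on B alternative replicate 15 (0.494) and LW alternative replicate 18 (0.579). On these arrays 5876 and 5274 tested probes were more than 1 log2 unit from their median Cy5 level, against a median of 22.5 over all arrays.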

How the results depend on the processing

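Results were counted per probe and alternative fit, with 19 or 20 fits for each probe, or 18 or 19 within a housing system. The breed difference of SLC28A1, SLC25A24 and CLCN2 probes kept its direction and its call in 77 of 77 such results. In conventional housing it did so in 73 of 73, and housing stayed uncalled in 77 of 77. A fit of Cy3 intensity alone without quantile normalization was outside these. It lost the call of both SLC28A1 probes in conventional housing and left BW968508.1_635 uncalled in alternative housing. CN153994.1_766 went from −1.10 to −0.84, BW968508.1_635 from −0.66 to −0.18, AJ664692.1_225 from −1.21 to −0.41 and BX673277.1_2642 from −1.35 to −0.50. With each pig left out in turn, added after seeing the data, all 4 were called in 40 of 40 fits. In alternative housing BW968508.1_635 was called with processed signals (−0.58), no background correction (−0.19), normexp without offset (−0.43), loess (−0.25), quantile-normalized Cy3 alone (−0.18), the deposited log2 table (−0.52), array weights (−0.18), without B alternative replicate 15 and LW alternative replicate 18 (−0.20) and, chosen after seeing the data, with extreme backgrounds replaced (−0.17) or without LW alternative replicate 18 (−0.20); its limma adjusted P went from 0.0114 to 0.104 over 18 alternatives. The interaction turned sign for AJ664692.1_225 with processed signals (−0.077), normexp without offset (−0.00021), loess (−0.014), Cy3 alone (−0.012), array weights (−0.084), without the 2 arrays (−0.0063) and backgrounds replaced (−0.00052), and for BX673277.1_2642 with processed signals (−0.22), no correction (−0.0037), no offset (−0.090), loess (−0.043), Cy3 alone (−0.22), the log2 table (−0.11), array weights (−0.018) and without the 2 arrays (−0.041), never called; without LW alternative replicate 18 they were 0.00091 and 0.00058. The difference between the SLC28A1 probes was not called with processed signals (−0.44) or the log2 table (−0.47). The correlation in LW of BW968508.1_635 with AJ664692.1_225 became −0.32 with processed signals, and that of AJ664692.1_225 with BX673277.1_2642 0.38 without 2 pigs. The causes of these changes were not tested, except that replacement acts only through the 17 extreme backgrounds. The count of probes called for breed went from 2312 to 3787. Each replicate number is shared by a B and an LW pig, and only this pairing was checked. Over the 20 pairs the correlation went from −0.36 to 0.34, and 2 pigs correlated best with the pig of their own number. With the number as a block 2651 probes were called. The pair difference was then −0.65 and the breed differences were −0.86, −0.21, −0.51 and −0.60. Neither check concerns littermates, which are of the same breed, and their likeness was not tested. The filter asking for signal on all 40 arrays left only CN153994.1_766, and the analysis that removes slide first gives no value within a housing system. Median signals of BW968508.1_635, AJ664692.1_225 and BX673277.1_2642 were only about 2 to 3 times the background.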
